A study of Rattus norvegicus with 14 samples.

Results

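The 10 genes described here belong to the unfolded protein response, the programme that a cell runs when unfolded protein gathers in its endoplasmic reticulum (ER). They were chosen by name: Atf4, Ddit3 and Xbp1 for the transcription factors, Hspa5, Hsp90b1, Calr, Dnajc3, Pdia4 and Hyou1 for folding in the ER lumen, and Herpud1 for disposal of misfolded protein. Each was read by 1 array probe, matched through its transcript accession to the rat RefSeq gene table, among 18611 genes tested in all. The skin came from 14 male CD hairless rats, a strain without a full coat, housed in pairs and sampled after 5.5 months of sessions of 3 h a day on 3 days a week. In 6 rats the sessions delivered radiation at 94 GHz, a millimetre-wave frequency, and 8 rats were sham exposed on the same schedule. RNA from each rat's skin was labelled with Cy3 and hybridised to its own one-colour Agilent array, so n counts animals. The labels do not say which rats were cage mates.

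In the unfolded protein response the membrane sensors IRE1, PERK and ATF6 are held inactive by the chaperone BiP, the product of Hspa5, and are set free when BiP is drawn to unfolded protein. IRE1 splices the Xbp1 message so that it encodes an active transcription factor, PERK slows general translation while favouring translation of Atf4, and cleaved ATF6 enters the nucleus, where these factors raise chaperone, folding enzyme and ER-associated degradation genes. Skin secretes large amounts of collagen and other matrix protein and its epidermis renews continuously, so its cells fold much protein in the ER. An expression array of this kind reads neither the splicing of Xbp1 nor the phosphorylation of PERK.

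Values are log2 of the scanner's processed signal minus the same array's 75th percentile, called the log2 level below; a difference of 1 is a 2-fold change in signal. Levels are compared between animals for the same probe and never between probes. The 75th percentile of signal ran from 805 in sham animal 6 to 1967 in sham animal 2. Krt5, Krt14, Krt1, Col1a1 and Dcn, which mark epidermis and dermis, were well above background on all 14 arrays, and Krt10 had no probe that could be used. Skeletal muscle markers varied most: their score, the mean centred log2 level of 11 measured genes, ran from -1.96 to 4.97 in exposed and from -2.82 to 3.64 in sham skin. The arrays lay on 4 slides: slide 1 held sham animals 1 and 2, slide 2 exposed animals 1 and 2, slide 3 animals 3 to 5 of each group, and slide 4 exposed animal 6 with sham animals 6 to 8.

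The library of sham animal 6 stood apart, and the members' differences and the list counts are given with and without it. It held the lowest value of the 14 arrays for 21.8% of all genes and the highest for 28.4%, the largest shares of any array at both ends. All 10 members were well above background and none was saturated on any of the 14 arrays.

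The promoters of 7 members carry the sequence elements through which this response is known to act, and these are printed to show what those promoters share. The ER stress response element (ERSE), bound by NF-Y at its first block and by ATF6 or XBP1 at its last, was searched as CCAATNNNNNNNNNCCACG, and its shorter relative ERSE-II as ATTGGNCCACG, each on both strands of the 250 bases before the annotated gene start in RefSeq's rat build GRCr8. Capitals mark the fixed letters of the element, and each line runs 5′ to 3′ along the gene's own strand.
Xbp1, chr14:84604538-84604596, plus strand: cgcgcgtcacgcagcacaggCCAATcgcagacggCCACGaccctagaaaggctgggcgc
Hspa5, chr3:38452953-38453011, plus strand: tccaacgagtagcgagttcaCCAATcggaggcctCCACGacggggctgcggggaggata
Hsp90b1, chr7:23012431-23012489, minus strand: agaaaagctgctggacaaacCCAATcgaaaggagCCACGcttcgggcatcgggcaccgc
Hsp90b1, chr7:23012327-23012385, minus strand: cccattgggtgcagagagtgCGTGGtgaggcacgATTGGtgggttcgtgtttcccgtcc
Calr, chr19:40213117-40213173, plus strand: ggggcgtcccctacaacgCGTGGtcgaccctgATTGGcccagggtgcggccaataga
Dnajc3, chr15:102432514-102432572, plus strand: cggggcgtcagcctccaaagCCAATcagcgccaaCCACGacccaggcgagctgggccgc
Herpud1, chr19:10614801-10614851, minus strand: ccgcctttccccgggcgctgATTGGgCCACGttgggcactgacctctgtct
Hyou1, chr8:53602674-53602724, plus strand: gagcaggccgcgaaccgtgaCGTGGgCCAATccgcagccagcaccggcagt
Hyou1, chr8:53602774-53602824, plus strand: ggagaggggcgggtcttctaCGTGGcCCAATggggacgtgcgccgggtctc

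The first 2 lines and those of Dnajc3 and of the farther Hsp90b1 element read CCAAT to CCACG along the gene. The Calr element and the nearer Hsp90b1 element lie on the opposite strand and so appear as CGTGG to ATTGG. The Hspa5 element ended 25 bases before the gene start and the Calr element 214 bases before it. Across 33469 promoter windows of the same length, ERSE was in 22, or 0.0657%, and 5 of the 10 members held it. ERSE-II was in 14 windows, or 0.0418%, and Hyou1, with a pair of copies on the opposite strand, and Herpud1 held it. The element TGACGTGG, an unfolded protein response element of XBP1, was in 0.52% of windows and in the Hyou1 window, where it overlaps the farther ERSE-II. The amino acid response element TGATGNAA, bound by ATF4, was in 3.4% of windows and, among members, in that of Herpud1. The windows of Ddit3, Atf4 and Pdia4 held none of the searched letters. These elements were described on promoters of this kind of gene, so their presence here is a description of the members and not a result.

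In the exposed against sham comparison, which asks whether repeated 94 GHz exposure left a change in skin RNA, no member passed the test. With limma and Benjamini-Hochberg adjustment over all genes, 0 of 10 members and 0% of all 18611 genes had an adjusted p under 0.05. At an unadjusted p under 0.05 there were 0 of 10 members against 3.42% of all genes. The exposed mean was above the sham mean for 6 members, against 43% of all genes, and without sham animal 6 for 5 members, against 46.5%. The groups overlapped for each of the 10 members, and 0.0322% of all genes had groups without overlap. The sizes were small: the differences ran from -0.12 for Pdia4 to 0.14 for Dnajc3 on the log2 scale. Bulk skin holds many cell types, and fewer cells of a type cannot be told apart from less RNA per cell.

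**Figure D1:**
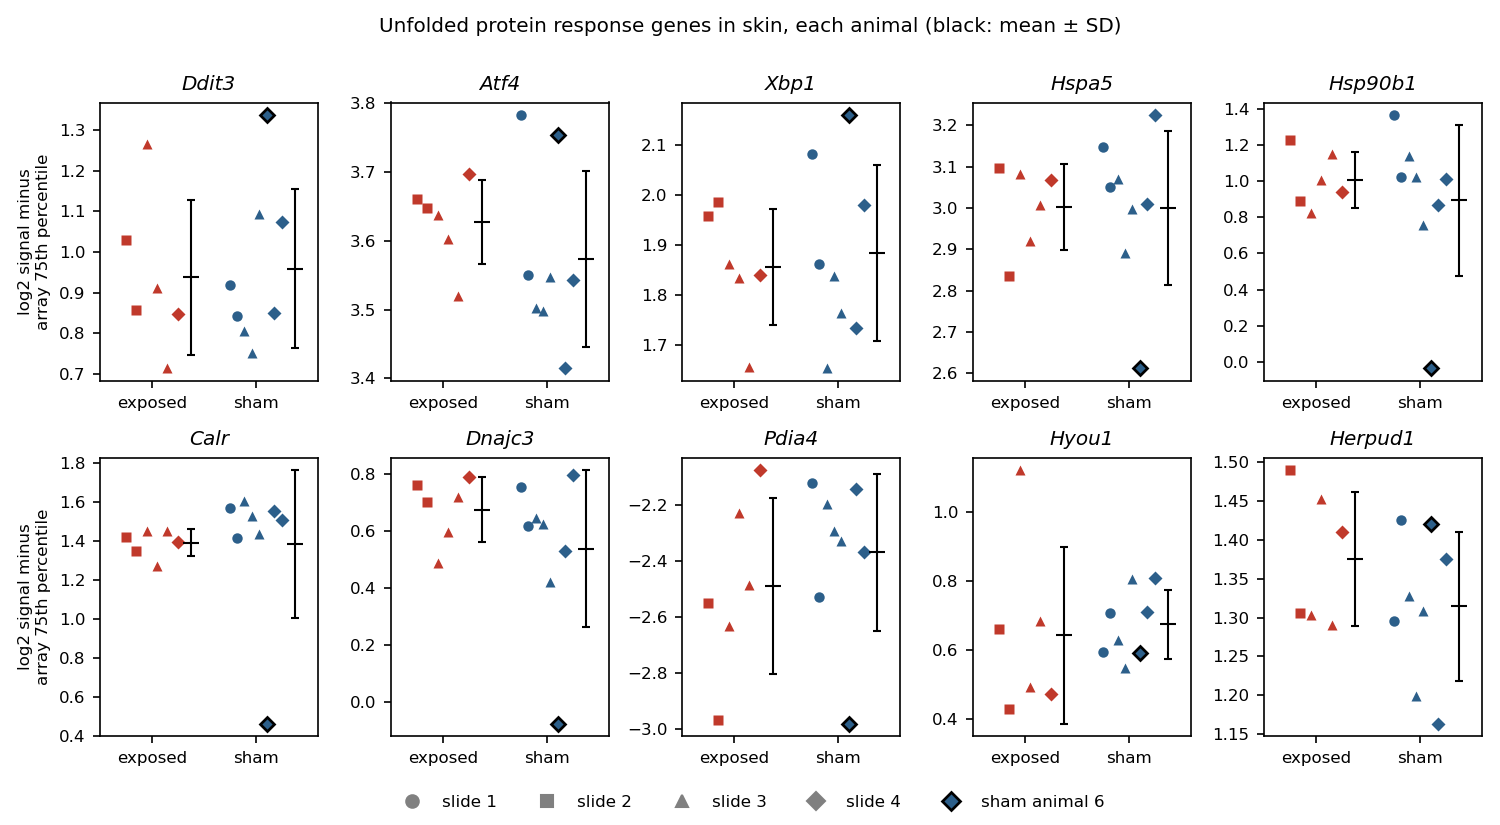
Log2 level (signal minus the array's 75th percentile) of each of the 10 members in 6 exposed and 8 sham animals, with marker shapes for the 4 slides, black bars for mean ± SD and a black outline for sham animal 6. The groups overlap in every panel, and sham animal 6 lies at the bottom for Hspa5, Hsp90b1, Calr, Dnajc3 and Pdia4 and at the top for Ddit3 and Xbp1.

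Among the transcription factors, Atf4, the factor whose translation PERK favours, spread less in exposed than in sham skin. So did Xbp1 (SD 0.12 against 0.18) and, slightly, Ddit3 (SD 0.19 against 0.20). Without sham animal 6 the sham SDs of Atf4, Xbp1 and Ddit3 were 0.11, 0.15 and 0.13. The log2 level of Atf4 ran from 3.52 through a median of 3.64 to 3.70 in exposed animals and from 3.41 through 3.55 to 3.78 in sham animals. The sham range enclosed the exposed range, with sham animals 1 and 6 above every exposed animal. The exposed mean was 3.63 ± 0.061 (SD, n = 6) and the sham mean 3.57 ± 0.13 (SD, n = 8), a difference of 0.053 (95% interval -0.093 to 0.20; two-sided exact permutation p = 0.363, limma adjusted p = 0.9996). It was 0.079 without sham animal 6, 0.070 within slide 3 and 0.13 within slide 4.

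Ddit3, which encodes CHOP, a factor downstream of ATF4 linked to cell death under lasting stress, ran from 0.71 through 0.88 to 1.27 in exposed and from 0.75 through 0.88 to 1.34 in sham skin. The medians were nearly equal, and 1 animal in each group stood high, exposed animal 3 and sham animal 6. The difference was -0.021 (95% interval -0.25 to 0.20; exact permutation p = 0.836, limma adjusted p = 0.9996). It was 0.033 without sham animal 6. Within slide 3 the difference was 0.080 and within slide 4, which holds 1 exposed animal, -0.24.

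Xbp1, counted here without regard to splicing, ran from 1.66 through 1.85 to 1.98 in exposed animals and from 1.65 through 1.85 to 2.16 in sham animals. The lowest values of the groups were nearly the same, and sham animals 1 and 6 were the highest. The difference was -0.029 (95% interval -0.22 to 0.16; exact permutation p = 0.745, limma adjusted p = 0.9996). It was 0.011 without sham animal 6, 0.032 within slide 3 and -0.12 within slide 4.

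Of the chaperones, Hspa5, which encodes BiP and is the usual readout of the response, was the nearest to no difference. Its log2 level ran from 2.84 through 3.04 to 3.10 in exposed and from 2.61 through 3.03 to 3.22 in sham skin. Sham animals held both the lowest value, in sham animal 6, and the highest, in sham animal 8. The means were 3.00 ± 0.10 (SD, n = 6) and 3.00 ± 0.19 (SD, n = 8), and the difference of 0.0018 had a 95% interval of -0.19 to 0.19 (exact permutation p = 0.986, limma adjusted p = 0.9996). The difference was -0.054 (95% interval -0.20 to 0.089) without sham animal 6.

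Hsp90b1, which encodes GRP94, the ER member of the HSP90 family, ran from 0.82 through 0.97 to 1.23 in exposed animals and from -0.04 through 1.02 to 1.36 in sham animals. The value of -0.04 was that of sham animal 6, and the next lowest sham animal stood at 0.76. The difference was 0.11 (95% interval -0.25 to 0.48; exact permutation p = 0.657, limma adjusted p = 0.9996), the widest interval of the 10. It was -0.021 (95% interval -0.23 to 0.19) without sham animal 6, 0.021 within slide 3 and 0.32 within slide 4, where sham animal 6 lies.

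Calr, which encodes calreticulin, a lectin chaperone that binds calcium and newly made glycoproteins, had the most even level of the chaperones once sham animal 6 was set aside. Exposed animals ran from 1.27 through 1.41 to 1.45. Sham animals ran from 0.46 through 1.52 to 1.61, with the next lowest after sham animal 6 at 1.41. The difference over 14 animals was 0.0051 (95% interval -0.32 to 0.33; exact permutation p = 0.998, limma adjusted p = 0.9996). With that animal left out it was -0.13 (SE 0.052, 95% interval -0.24 to -0.015), with a limma unadjusted p of 0.0295 and an adjusted p of 0.566. Calr was the 1 member of 10 under 0.05 unadjusted in that fit, against 8.32% of all genes, and so it did not pass the test. Within slide 3 the difference was -0.13 and within slide 4, with sham animal 6 included, 0.22.

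Dnajc3, which encodes P58IPK, an ER-lumen partner of BiP also known to restrain PERK, had the largest positive difference. Exposed animals ran from 0.49 through 0.71 to 0.79 and sham animals from -0.08 through 0.62 to 0.80. The highest values of the groups were nearly the same, and sham animal 6 was again the lowest. The difference was 0.14 (95% interval -0.12 to 0.39; exact permutation p = 0.307, limma adjusted p = 0.9996). It was 0.049 without sham animal 6, 0.037 within slide 3 and 0.37 within slide 4.

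Pdia4, which encodes ERp72, a disulfide isomerase, ran from -2.97 through -2.52 to -2.08 in exposed skin and from -2.98 through -2.31 to -2.12 in sham skin. Exposed animal 2 and sham animal 6 were the lowest and exposed animal 6 the highest, so each group spanned nearly the whole range. The difference was -0.12 (95% interval -0.44 to 0.20; exact permutation p = 0.459, limma adjusted p = 0.9996). It was -0.21 without sham animal 6, -0.18 within slide 3 and 0.42 within slide 4.

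Hyou1, which encodes GRP170, the large ER chaperone that exchanges nucleotide on BiP, differed from the other chaperones in that sham animal 6 was not apart. Exposed animals ran from 0.43 through 0.58 to 1.12 and sham animals from 0.55 through 0.67 to 0.81. The value of 1.12 was that of exposed animal 3, and the next highest exposed animal stood at 0.68. The difference was -0.031 (95% interval -0.25 to 0.18; exact permutation p = 0.783, limma adjusted p = 0.9996). Leaving out sham animal 6 gave -0.043 and leaving out exposed animal 3 gave -0.13 (95% interval -0.28 to 0.028). Within slide 3, which holds exposed animal 3, it was 0.10, and within slide 4 it was -0.23.

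Herpud1, a membrane protein of the ER-associated degradation complex, had the smallest SD of the 10 over all 14 animals. Exposed animals ran from 1.29 through 1.36 to 1.49 and sham animals from 1.16 through 1.32 to 1.43. Exposed animals 1 and 4 were above every sham animal, and sham animals 4 and 7 were below every exposed animal. The difference was 0.061 (95% interval -0.075 to 0.20; exact permutation p = 0.244, limma adjusted p = 0.9996), and it was 0.076 without sham animal 6, 0.070 within slide 3 and 0.091 within slide 4.

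**Figure D2:**
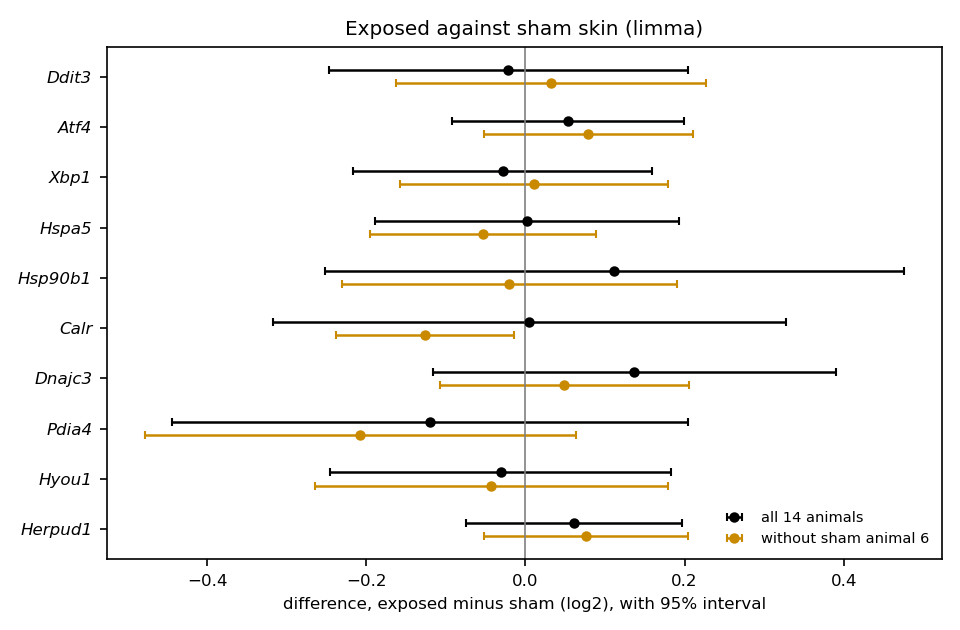
Difference in mean log2 level, exposed minus sham, for the 10 members with the 95% interval from limma, over all 14 animals (black) and without sham animal 6 (ochre). Every black interval spans 0; leaving out sham animal 6 narrows the intervals of Hsp90b1, Calr and Dnajc3, and that of Calr then runs from -0.24 to -0.015.

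How much Hsp90b1, Calr and Dnajc3 varied between animals depended on sham animal 6. The SD of Hyou1 (0.176 with it, 0.181 without it) and that of Herpud1 hardly changed. Over all 14 animals the SD was 0.32 for Hsp90b1, 0.29 for Pdia4 and 0.28 for Calr, with larger SDs in 31.1%, 38.8% and 40.4% of all genes, and it was lowest for Herpud1 at 0.094. With sham animal 6 left out, the SD over 13 animals was 0.094 for Calr, 0.095 for Herpud1, 0.098 for Atf4 and 0.11 for Hspa5. Larger SDs were seen in 92.4%, 92.0%, 90.7% and 88.1% of all genes respectively. Pdia4 then had the largest SD of the 10 at 0.25, with 36.1% of genes above it, and Hsp90b1 had 0.17, with 61.2%. In exposed animal 3 Hyou1 was 0.49 and Ddit3 0.41 above the median of the other animals, and the other 8 members lay between -0.30 and 0.086 of it.

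The rest of the pathway was read from 6 lists of 82 genes, of which 72 were measured, with no overlap with the 10 members. Of these, 29 had a higher and 43 a lower exposed mean, 0 had an adjusted p under 0.05 by limma and 0 an unadjusted p under 0.05, and the median difference was -0.022, against -0.019 over all genes. Without sham animal 6 the counts were 28 higher and 44 lower, with a median of -0.018 against -0.012 over all genes. In that fit 0 had an adjusted p under 0.05 by limma and 8 of 72 an unadjusted p under 0.05, against 8.32% of all genes. The 8 were Atf6b, Bbc3, Dnajc10, Os9, P4hb, Pdia3, Sec61a1 and Vcp, and of these Dnajc10 alone was higher. Os9 had the smallest p (difference -0.25, limma unadjusted p = 0.00308, adjusted p = 0.466). Among 9 sensors and regulators, 7 were lower with sham animal 6 and 5 without it. Over 14 animals the smallest p-values were those of the ATF6-cleaving proteases Mbtps1 (difference -0.081, limma adjusted p = 0.9996) and Mbtps2 (difference -0.19, limma adjusted p = 0.9996). Mbtps2 was well above background on 13 arrays. Without sham animal 6 the smallest was that of Atf6b (difference -0.17, limma unadjusted p = 0.0239, adjusted p = 0.548). The 16 measured targets of PERK and ATF4 divided into 7 higher and 9 lower (6 and 10 without sham animal 6), led by Atf3, a stress-induced factor, with a difference of 0.30 (95% interval -0.34 to 0.95), and Slc7a11, the cystine transporter, with -0.18 (95% interval -0.60 to 0.23). Among 14 measured folding enzymes and chaperones 9 were lower with sham animal 6 and 12 without it, with Erp44, a thiol-retention protein, at -0.23 (95% interval -0.51 to 0.048) and Sil1, the other nucleotide exchanger of BiP, at -0.15 (95% interval -0.37 to 0.077).

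The 13 measured degradation genes counted 4 higher and 9 lower (5 and 8 without sham animal 6), with Edem2, a mannosidase of that pathway, at 0.071 and Sel1l, the partner of the ligase HRD1, at -0.058. The 15 measured translocation and transport genes counted 9 higher and 6 lower, in either case, with Sec63, which recruits BiP to the translocon, at -0.13 (-0.077 without sham animal 6) and Ostc, a subunit of oligosaccharyltransferase, at 0.11. Of 5 measured cell death genes, Bbc3, which encodes PUMA, had the smallest limma unadjusted p of the 72 over 14 animals, at 0.0541. Its difference was -0.18 (95% interval -0.36 to 0.0036, limma adjusted p = 0.9996), and Bak1, a pore-forming death effector of mitochondria, had a difference of 0.081. Without sham animal 6 the difference of Bbc3 was -0.20 (limma unadjusted p = 0.0285, adjusted p = 0.566). None of these 12 genes passed the test, and each kept its direction without sham animal 6.

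The clearest pattern among the members lay within the sham group. In sham animal 6, set against the median of the other 13 animals, Hsp90b1 was lower by a log2 difference of -1.05, Calr by -0.99, Dnajc3 by -0.72, Pdia4 by -0.65 and Hspa5 by -0.44, each the lowest of the 14. Ddit3 at 0.48 and Xbp1 at 0.32 were the highest of the 14. Atf4 at 0.20 and Herpud1 at 0.11 were above the median, and Hyou1 at -0.070 was below it. Set among all genes in this animal, 4.71% were lower than Hsp90b1, 5.40% lower than Calr, 10.4% lower than Dnajc3, 12.4% lower than Pdia4 and 19.8% lower than Hspa5. At the other end 21.5% were higher than Ddit3, 30.6% higher than Xbp1 and 38.5% higher than Atf4, so the high values were less unusual for this array than the lowest ones.

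This was 1 animal, and its array differed broadly: 5 of 10 members were the lowest of the 14 against 21.8% of all genes, and 2 of 10 were the highest against 28.4%. Of the measured folding enzymes 7 of 14 were lowest in sham animal 6, and of the sensors and regulators 6 of 9 were highest. The folding list reached both ways, and its genes named here were chosen after their values were seen. Pdia6, Creld2 and Pdia3, also folding proteins of the lumen, were at -1.42, -1.42 and -1.37, and Canx, the membrane-bound relative of calreticulin, at -1.17, whereas Dnajc10, Sdf2l1, Ppib and Erp44 lay above the median of the others, at 0.29, 0.28, 0.23 and 0.18. The sensor genes, chosen in the same way, differed too: Eif2ak3, which encodes PERK, Ern1, which encodes IRE1, and Atf6 were at 0.82, 0.55 and 0.45, while Atf6b was at -1.07. Ern1 was dim, well above background on only 8 of the 14 arrays, and Eif2ak3, Atf6 and Atf6b were so on all 14. ER genes did not all lie low, since Sec61a1 was at -1.47 but its smaller partners Sec61g and Sec61b were at 1.09 and 0.69.

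Other measures moved in the same animal. Its 75th percentile of signal was the lowest of the 14, and its marker scores were the lowest for adipocytes (-1.23, against -0.63 to 0.65 in the others), hair follicle (-1.58, against -1.52 to 1.53), endothelium (-0.88, against -0.27 to 0.33), cell cycle (-0.36, against -0.11 to 0.21), sebaceous gland (-0.17, against -0.11 to 0.17) and basal keratinocytes (-0.25, against -0.16 to 0.17). The B cell and plasma cell score, on 3 of 10 listed genes, was the highest at 0.58, against -0.24 to 0.13. Their part in the member values was not tested. Among the members with an ERSE or ERSE-II element, 5 of 7 lay below the median of the others in this animal, against 46.0% of all genes. Of 17 measured other genes with such an element, 8 lay below it, with a median of 0.0001. Pdia4, a member with neither element, also lay below it, at -0.65.

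**Figure D3:**
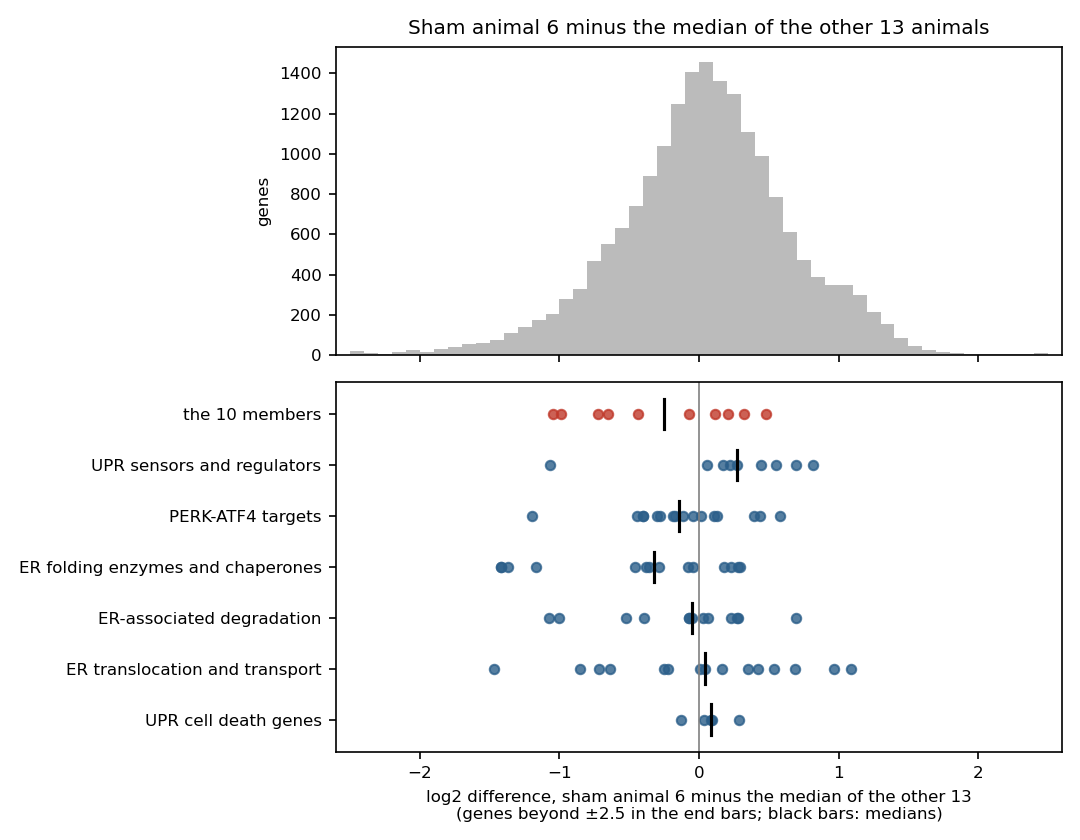
Log2 level in sham animal 6 minus the median of the other 13 animals, as a histogram over all genes (above) and for the 10 members and the 72 measured genes of the 6 pathway lists (below; points are genes, black bars medians). The members run from -1.05 to 0.48; the median is -0.32 for the folding enzymes and 0.27 for the sensors and regulators.

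Whether members rose and fell together across animals was examined over 45 pairs, with Pearson r, Spearman rho and permutation p-values adjusted over the 45. Over 14 animals 19 pairs had r above 0, and 2 pairs had an adjusted p under 0.05. The same counts over pairs of all genes were not computed. Each member's median r with the other members ran from -0.28 for Xbp1 to 0.40 for Hspa5. With all genes it ran from -0.053 for Calr to 0.11 for Xbp1. Without sham animal 6 these ranges were -0.13 to 0.35 and -0.011 to 0.12. The chaperone pair Hsp90b1 and Dnajc3 had r = 0.913 (permutation p = 0.00049, adjusted p = 0.022) and rho = 0.679 (permutation p = 0.00962, adjusted p = 0.216). With the 2 animals farthest on Hsp90b1 left out r was 0.650, and without sham animal 6 alone it was 0.658 (adjusted p = 0.222). Within slide 3, with 6 animals, r was 0.977, and within the 6 exposed animals it was 0.550.

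The transcription factor pair Atf4 and Xbp1 had r = 0.776 (permutation p = 0.00121, adjusted p = 0.0272) and rho = 0.758 (permutation p = 0.00265, adjusted p = 0.119). It rested less on sham animal 6, with r = 0.715 without it (adjusted p = 0.140). The r of this pair was 0.578 without the 2 animals farthest on Atf4, 0.634 within slide 3, 0.760 in exposed and 0.860 in sham animals. It depended on the scaling, since r was 0.153 after quantile normalization and 0.152 in the authors' values. By Spearman's rho, or without sham animal 6, 0 of 45 pairs passed, and 4 had an unadjusted permutation p under 0.05 without it. The count of pairs passing was 11 after quantile normalization and 0 after normexp background correction.

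**Figure D4:**
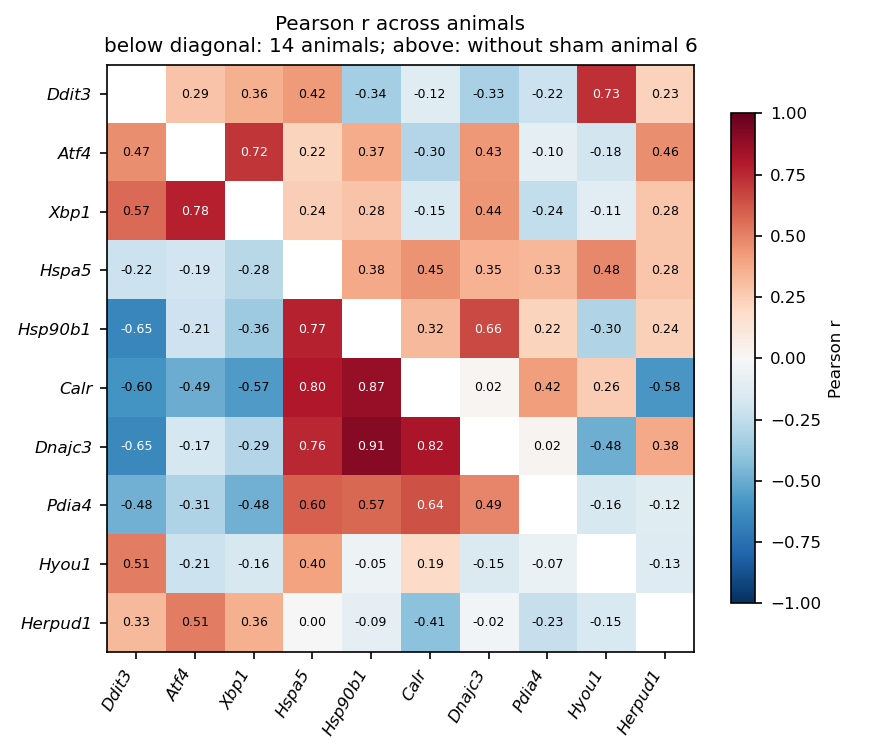
Pearson r between the log2 levels of each pair of members, over 14 animals (below the diagonal) and over 13 animals without sham animal 6 (above it); blue is negative and red positive. The block of high r among Hspa5, Hsp90b1, Calr and Dnajc3, up to 0.91, runs from 0.020 to 0.66 without sham animal 6.

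Over the 13 animals without sham animal 6, the pair with the highest r was Ddit3 and Hyou1, at 0.731 (permutation p = 0.00534, adjusted p = 0.140, rho = 0.451), both high in exposed animal 3. The 4 chaperones Hspa5, Hsp90b1, Calr and Dnajc3 had r from 0.76 to 0.91 with each other over 14 animals. The value for Hsp90b1 and Calr, 0.871 over 14, was 0.323 over 13, and that for Calr and Dnajc3 was 0.020 over 13. Sham animal 6 had the lowest value of all 14 for each of these 4.

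The members were also set against the scores of 10 marker lists and against array signal, 110 relations in all, and 1 passed. The other 4 marker lists were not used because 1 animal lay far from the rest: sham animal 6 for endothelium, cell cycle and B and plasma cells, and exposed animal 3 for dermal fibroblasts. Calr followed the basal keratinocyte score, the mean centred level of 7 measured genes, with r = 0.773 (permutation p = 5e-05, adjusted p = 0.0055) and rho = 0.921 (permutation p = 2e-05, adjusted p = 0.0022). Without the 2 animals farthest on that score r was 0.846. Over 13 animals, without sham animal 6, r was 0.813 and rho 0.901 (adjusted p = 0.0924 for r). It was 0.612 in the 6 exposed animals, 0.756 in the 7 other sham animals and 0.959 within slide 3. Other members lay on either side without passing: r with this score was -0.717 for Atf4, -0.687 for Herpud1, -0.619 for Xbp1 and -0.441 for Ddit3. It was 0.568 for Hsp90b1, 0.545 for Pdia4, 0.502 for Hspa5, 0.383 for Dnajc3 and 0.324 for Hyou1. Without sham animal 6 these ran from -0.695 for Herpud1 to 0.321 for Pdia4. The score ran from -0.16 to 0.072 in exposed and from -0.25 to 0.17 in sham skin, and its part in the Calr difference without sham animal 6 was not tested.

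**Figure D5:**
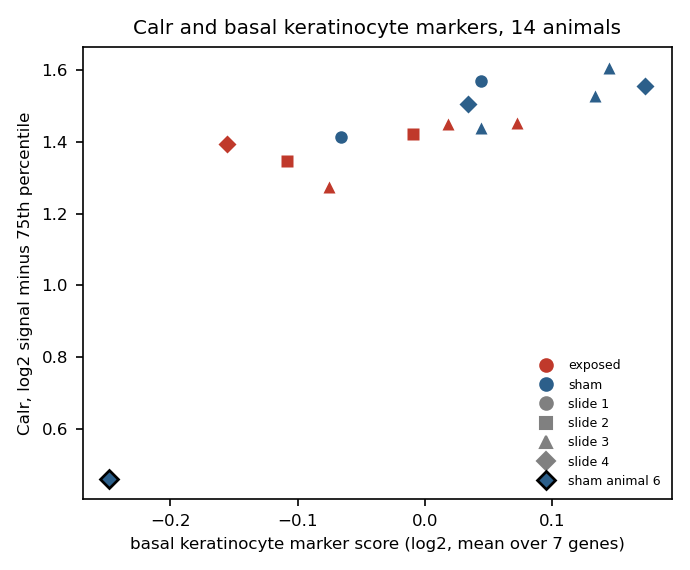
Calr log2 level against the basal keratinocyte marker score (mean centred log2 level of 7 genes) in 14 animals, by group (colour) and slide (shape), with sham animal 6 outlined. Calr is higher where the score is higher over the 13 animals on the upper band (r = 0.813), and sham animal 6 lies at the lower left, with a score of -0.25 and a Calr level of 0.46.

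Ddit3 had r = -0.738 with array signal (permutation p = 0.00324, adjusted p = 0.153; rho = -0.600), and r was -0.22 without the 2 arrays farthest in signal. Most other members also had sizeable r: 0.705 for Dnajc3, 0.676 for Calr, 0.604 for Hsp90b1, 0.603 for Pdia4 and 0.560 for Hspa5. Xbp1 was at -0.603, Atf4 at -0.516, Hyou1 at -0.178 and Herpud1 at -0.084. No relation with array signal passed. Without sham animal 6 r was -0.550 for Ddit3, and the others ran from -0.386 for Hyou1 to 0.347 for Pdia4. The 2 animals in which Ddit3 was highest, sham animal 6 and exposed animal 3, had the 2 lowest array signals.

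The genes with a pattern most like the mean of the 10 members were taken over all genes with a symbol outside the lists, by Pearson r over the same 14 arrays, as a description with no test. They were Lyar (r = 0.946), Timmdc1 (0.929), Cfl1 (0.927), Rab14 (0.912), Wrap53 (0.902) and Gmppb (0.898). Over 13 animals, without sham animal 6, the likest included Kcnk3, Tonsl, Lyar, Fbxo41 and Srgap1, so Lyar was in both sets. For Hspa5 the likest were Alg2 (0.938), Slc7a4 and Elp6, for Hsp90b1 they included Anp32e (0.954) and Pnpt1, for Calr Ggt5 (0.967), Bop1 and Zfyve27, and for Dnajc3 Tmem199 (0.963), Alg12 and Vapb. For Atf4 they were Per3 (0.889), Or8b37 and Atp6v1a, and for Ddit3 Polr2f (0.940), Vps25 and Ndufb4. Polr2f kept first place for Ddit3 without sham animal 6, with r = 0.922, and Tmem199 for Dnajc3, with r = 0.899, whereas none of the 3 genes likest Calr was among its first 3 over 13 animals.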

How the data were processed

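Skin RNA of 14 rats was read on one-colour arrays of 62976 spots, and the deposited scanner files, written by Agilent Feature Extraction 10.7.3.1 per the file headers, give the spot intensity after the scanner software's background subtraction. Control spots (4259) and flagged outliers were left out and spots of a probe averaged. From the intensity, log2 was taken and each array's 75th percentile subtracted. Of 30367 probes, 21014 were well above background on at least 6 arrays; 59.3% had a RefSeq symbol. The brightest probe stood for a gene with several. The authors' deposited log2 value table served as an alternative, as did the file's own marks (another column per the file headers) for detection and saturation. The 2 groups were compared by limma 3.58.1 in R 4.3.3 on 18611 genes, by exact permutation over all 3003 splits for each member, and by 100000 permutations for correlations. Named genes are the 10 members, of each pathway list the 2 of smallest p over 14 animals plus any under 0.05, and those of highest r. The 8 pathway genes under 0.05 without sham animal 6 are named as well. Genes of highest r beyond those named are not reported here. The members and lists were chosen with earlier results of these data known. The scripts were tested on simulated data. The number of arrays limits the precision. Alternatives are given in the closing section.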

Additional observations from a re-analysis of the deposited data

Results flagged for a closer look

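Among 44 sets of values, 22 named genes in 2 groups, 6 held an animal far from the rest of its group by Dixon's ratio. For independent sets chance gives about 1 in 20, but these sets share the same 14 arrays. The share over all genes was not computed, so the count is not a result about these genes. Of those 6, 5 were in sham animal 6. That array held the lowest value of the 14 for 21.8% of all genes and the highest for 28.4%. Calr lay at 0.46 there, with the next sham animal at 1.41. Hsp90b1 lay at -0.035, with the next at 0.76. Dnajc3 lay at -0.077, with the next at 0.42, and Pdia4 at -2.98, with the next at -2.53. Sec63 was the highest of the sham group there at 1.07, with the next at 0.77. In the exposed group Hyou1 was far from the rest in exposed animal 3, at 1.12 with the next at 0.68. The gap took up 83.2% of the sham range for Calr. It took up 52.7% for Pdia4 and 63.2% of the exposed range for Hyou1, both barely past the critical value for their group. The array of sham animal 6 also had the lowest signal of the 14, and the part of either measure was not tested.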

How the results depend on the processing

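The counts of genes, members and pathway genes with an adjusted p under 0.05 stayed at 0 under all 13 other settings and without each of 14 arrays. The lowest adjusted p of a member was 0.401. Atf4, Dnajc3 and Herpud1 kept their direction throughout. The cause of the turns that follow was not tested. Within slide 3 the log2 difference was 0.080 for Ddit3, 0.032 for Xbp1, -0.13 for Calr, 0.10 for Hyou1 and -0.50 for Atf3, and within slide 4 it was 0.42 for Pdia4 and -0.042 for Bak1. With array weights it was 0.018 for Ddit3, 0.044 for Xbp1, -0.060 for Hspa5 and -0.15 for Calr. With slide as a block it was -0.015 for Calr and 0.023 for Pdia4, and with slide as a random block -0.0028 for Hspa5. It was -0.0076 for Hspa5 after normexp correction, -0.00068 for Calr with the muscle score as a covariate and 0.019 for Sel1l as the mean of its probes. Leaving out each array in turn gave -0.087 to 0.033 for Ddit3, -0.062 to 0.011 for Xbp1, -0.054 to 0.035 for Hspa5, -0.021 to 0.18 for Hsp90b1, -0.13 to 0.037 for Calr and -0.13 to 0.011 for Hyou1. Hsp90b1 turned, to -0.021, in 1 of these fits, the one without sham animal 6.

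Pairs of members passing numbered 2, but 0 after normexp correction, 11 after quantile normalization and in the authors' values, 14 after centring on slide and group, 7 after centring on group, 0 by Spearman's rho, and 0 to 3 without each array in turn (0 without sham animals 5 or 6, 1 without sham animal 3). Relations with marker scores numbered 1, but 9 after centring on slide and group, 0 after centring on group, and 0 to 2 without each array (0 without sham animal 6, 2 without sham animal 1). Centring takes up degrees of freedom that the permutations do not count. Values of the named relations within each group and within slide 3 were added after the data were seen. No paired analysis was possible because the numbers name animals within a group and the labels do not pair exposed with sham animals. Slides 1 and 2 hold 1 group each, so there slide and group cannot be told apart.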
